A study of Medicago ruthenica with 9 samples.

Results

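Class III peroxidases were followed through drought and recovery in the leaf of a forage legume, Medicago ruthenica. They were taken from a deposited table of TPM (transcript abundance corrected for unigene length and scaled to a fixed total per library) by their protein descriptions. A unigene, the longest transcript of a cluster in an assembly made without a genome, was a member when it had at least 1 TPM in at least 3 libraries and its description named a numbered, class III, family or cationic peroxidase, with ascorbate, glutathione and thioredoxin enzymes left out. Of 57 unigenes whose text matched, 12 were left out in this way and 4 did not reach the level, which left 41 members of 44538 unigenes that reached it and 52457 in all.

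The 9 libraries were leaf RNA of 3 groups of 3. RW plants went 15 days without water and were harvested 2 days after the soil was saturated again, DS plants were harvested after the same 15 days, at a relative soil moisture of 20%, and CK plants were watered every 3 days at over 80% and harvested with DS. All plants were of the same cultivar, grown 8 to a pot and 4 weeks old when treatment began. RW was harvested 2 days later than CK and DS. In RW vs. CK the extra days cannot be told apart from the drying with rewatering, and in RW vs. DS not from the rewatering. The replicates are called biological, but no source says whether they came from separate plants or pots. A p-value here therefore reflects how far the libraries of a group scattered, which may be technical.

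Class III peroxidases are heme enzymes of plants, made with a signal peptide and sent to the cell wall, the apoplast or the vacuole. With hydrogen peroxide as oxidant they couple phenolic compounds, which stiffens walls and polymerizes lignin, and they can also produce reactive oxygen species that loosen walls. Families are large because of gene duplication, and peroxidase activity is a common marker of stress in leaves under drought.

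The annotation named the enzyme in nearly every member and its place in the cell in fewer. The Pfam peroxidase domain was annotated in 37 members, the peroxidase enzyme number in 39, and the KEGG pathway of phenylpropanoid synthesis in 39. A GO term for the extracellular region was given to 17, for the cell wall to 19, and for either to 28, so the name secreted had support in the annotation for 28 of the 41. The rule took in 1 unigene that is not a peroxidase: OCP3 (TRINITY_DN17519_c0_g1), a homeobox protein whose Arabidopsis name, overexpressor of cationic peroxidase, carries the word. It was kept in every count of 41 and is described apart. A further 6 unigenes carried the domain with other descriptions and were not members.

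Members were fragments in part. Their lengths lay between 238 and 2133 bp with a median of 930 bp, against 588 bp over all tested unigenes, and 23 reached 900 bp. They came from 26 Trinity components, which are groups of related transcripts of the assembly, and 7 components held 22 of the members. Copies in a component can share reads, so the split of TPM between them is uncertain. By closest SwissProt protein, 9 matched sweet potato peroxidase 15, 9 matched Arabidopsis peroxidases known there for a part in lignification (PER17 and PER52 with 2 unigenes each, and PER25, PER47, PER64, PER66 and PER72), and 3 had no entry. No member was closest to Arabidopsis PER33 or PER34, the enzymes of the apoplastic oxidative burst, or to PER3.

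The TPM of a library summed to 994748 at the lowest and 996266 at the highest, and TPM carries no count of the reads behind a value. RW replicate 2 stood apart: 3618 unigenes reached 5 TPM there and stayed under 0.5 TPM in every other library, which made 5.23% of its TPM against at most 0.182% elsewhere. As a check of the tissue, 19 mesophyll markers (chlorophyll-binding proteins and small Rubisco subunits) summed to between 20250 and 30117 TPM in RW, between 9928 and 29525 TPM in DS and between 23622 and 35139 TPM in CK. TPM divides a fixed total, and in whole leaves fewer cells of a type and less RNA per cell cannot be told apart.

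As a whole, peroxidase transcripts made a smaller part of the leaf RNA in DS. The 41 members summed to 2135, 2864 and 1857 TPM in RW, to 1401, 1199 and 1620 TPM in DS, and to 2540, 2762 and 2436 TPM in CK. The DS libraries lay below those of both other groups, and the RW and CK ranges overlapped. After median-of-ratios scaling the sums were 1740.4 to 2974 in RW, 1244 to 1862 in DS and 2316 to 2510.3 in CK, so that DS was still below CK but overlapped with RW. In percent of the library, this was 0.187 to 0.288% in RW, 0.120 to 0.163% in DS and 0.245 to 0.278% in CK. A single unigene, PER42 (TRINITY_DN22916_c0_g2), made 39.3 to 51.9% of the sum in RW, 30.8 to 42.2% in DS and 47.3 to 66.1% in CK. Without it the other 40 members summed to 989 to 1379 TPM in RW, 829 to 936 TPM in DS and 861 to 1455 TPM in CK, so that DS and CK overlapped. Sums over members are given as a description, with no test.

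**Figure D1:**
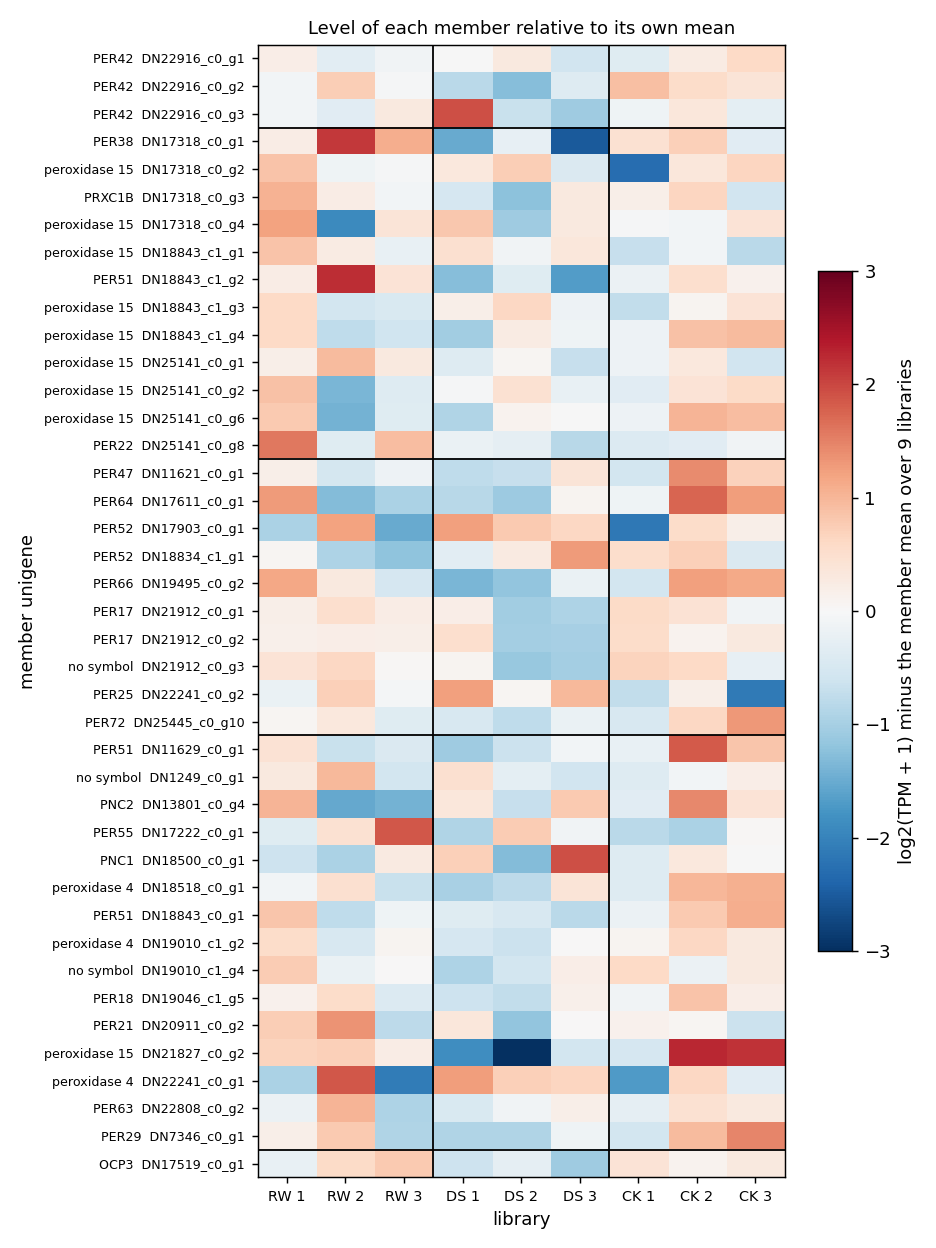
Level of each of the 41 members (rows) in each library (columns, RW, DS and CK from left to right) as log2(TPM + 1) minus the mean of that member over 9 libraries, with the colour scale ending at 3 on either side. From top to bottom the blocks are the PER42 component, the 3 peroxidase 15 components, lignin-linked members with the PER17 component, other members and OCP3. PER42 (DN22916_c0_g2) is lower in all 3 DS libraries than in any other library, while PER52 (DN17903_c0_g1) and the peroxidase 4 unigene DN22241_c0_g1 are high in DS and in RW replicate 2. For both of the latter, CK replicate 2 is nearly as high as DS replicate 3.

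The levels spanned 3 orders of magnitude. The mean over 9 libraries was under 5 TPM for 12 members, from 5 to 50 TPM for 20, and at least 50 TPM for 9. PER42 averaged 990.3 TPM and the next, the peroxidase 15 unigene TRINITY_DN25141_c0_g1, 105 TPM. The lowest, PER18 (TRINITY_DN19046_c1_g5), averaged 0.891 TPM.

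The comparison DS vs. CK asked which peroxidases differed after 15 days without water. Of the 41 members, 1 fell (PER42) and 0 rose, by limma across all unigenes. A call required an adjusted p (Benjamini-Hochberg) below 0.05 and a difference in log2(TPM + 1) of more than 1. That is 2.44% of members, against 4.96% of all 44538 tested unigenes called (2.57% lower and 2.39% higher). The log2 fold changes of the members ran between -3.16 and 1.65 with a median of -0.66, against -0.19 over all tested unigenes, and 31 of 41 (75.6%) were below 0 against 62.4% of all. After median-of-ratios scaling the medians were -0.53 for members and -0.05 for all, and after quantile normalization -0.38 and -0.04. The members' median was -0.29 with a pseudocount of 5 (-0.10 for all) and -0.43 without CK replicate 2 (-0.15 for all). With the adjustment of p left out, 9 members (22.0%) were lower and 1 (PER25) higher, against 8.94% and 5.34% of all tested unigenes (14.3% in either direction). Groups did not overlap for 6 members that were lower in DS (14.6%, against 18.1% of all) and 2 that were higher (4.88%, against 8.86% of all, with 26.9% of all in either direction).

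The comparison RW vs. DS asked what differed 2 days after water returned. PER38 (TRINITY_DN17318_c0_g1) rose and 0 members fell, 2.44% of members against 3.94% of all tested unigenes (1.79% higher and 2.15% lower). The median log2 fold change of the members was 0.37 against 0.17 for all, and 30 of 41 were above 0, with 11 below 0 against 38.3% of all. Single libraries moved this median: it was 0.18 without RW replicate 1 (0.13 for all), 0.58 without RW replicate 3 (0.16 for all) and 0.63 without DS replicate 3 (0.14 for all). It was 0.60 and 0.16 with pseudocounts of 0.1 and 5 (0.24 and 0.09 for all), and 0.19 after quantile normalization (0.04 for all). With the adjustment left out, 7 members (17.1%) were higher and 0 lower, against 7.07% and 4.95% of all (12% in either direction). RW lay wholly above DS for 6 members (14.6%, against 15.7% of all) and wholly below it for 0, against 8.01% of all (23.7% in either direction). DS libraries enter both comparisons, so that a low DS level moves both.

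In RW vs. CK 0 members were called by limma, against 0.00225% of all tested unigenes, which is 1 unigene. At an unadjusted p under 0.05 with the same fold the count of members was also 0, against 4.34% of all, and the groups overlapped for all 41 members, while they did not for 11.8% of all unigenes (5.35% higher and 6.44% lower in RW). The log2 fold changes ran between -1.29 for PER64 (TRINITY_DN17611_c0_g1) and 1.22 for PER55 (TRINITY_DN17222_c0_g1), with a median of -0.19 against -0.02 for all, and 25 of 41 (61.0%) were below 0 against 52.1% of all. This median was -0.41 without CK replicate 1, -0.04 without CK replicate 2, -0.11 without RW replicate 2, -0.09 without RW replicate 3 and -0.08 with a pseudocount of 5. For the most abundant member, PER42, the difference was -0.42 with a 95% interval between -1.10 and 0.27, which does not show that the levels were equal.

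**Figure D2:**
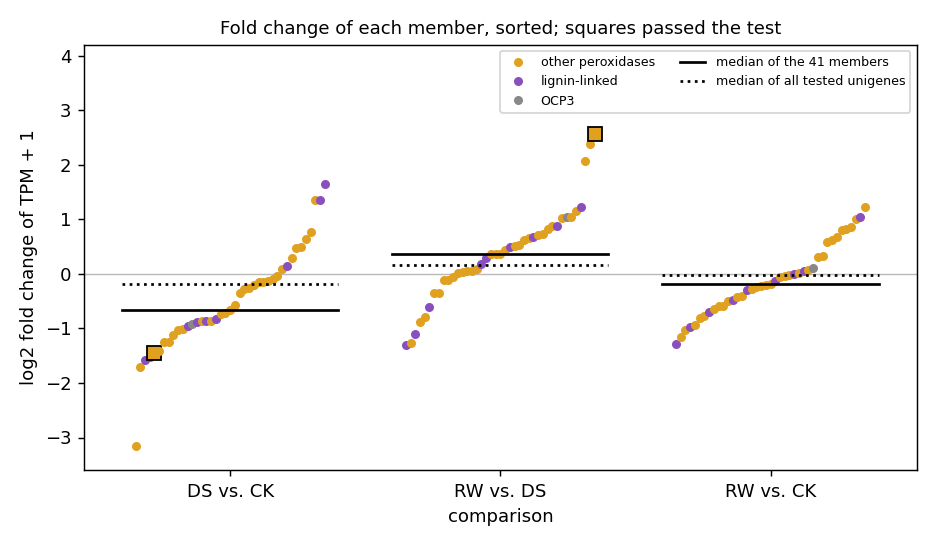
Log2 fold change of TPM + 1 of each member (points, sorted) in DS vs. CK, RW vs. DS and RW vs. CK, with the median of the 41 members (solid line) and of all tested unigenes (dotted line). Squares with a black edge are the members that passed the test, PER42 at -1.44 in DS vs. CK and PER38 at 2.57 in RW vs. DS.

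PER42 was the leading peroxidase transcript in every library and the member that fell in drought. It is named after an Arabidopsis peroxidase, and its closest Medicago truncatula protein is described as a cationic peroxidase. Its level was 839.9, 1486 and 867 TPM in RW, 505, 369.9 and 684 TPM in DS, and 1679, 1307 and 1175 TPM in CK. Every DS library lay below every library of the other groups, and RW replicate 2 was the only RW library within the CK range. The group means were 1064 ± 365 TPM in RW, 519 ± 157 TPM in DS and 1387 ± 262 TPM in CK (SD, n = 3 each). The log2 fold change was -1.44 (SE 0.30, limma adjusted p = 0.0275) in DS vs. CK, 1.03 (SE 0.30, adjusted p = 0.104) in RW vs. DS and -0.42 (adjusted p = 0.86) in RW vs. CK.

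Of the 19 alternatives, those that changed only the threshold, the filter, the spread or the RW libraries could not move a DS vs. CK estimate. An unadjusted p or no minimum fold is a looser threshold on the same fit, which a called unigene must pass. With these counted in, the fall of PER42 lay between -1.66 and -1.22 and passed the test in 12. It missed the threshold after median-of-ratios scaling (-1.25, limma adjusted p = 0.078) and without DS replicate 1 (0.0781), DS replicate 2 (0.0883), CK replicate 1 (0.0799), CK replicate 2 (0.0734) or CK replicate 3 (0.0682), which leaves 2 libraries in that group, and with the replicate number in the fit. The 2 other members of its component were near the floor of the table: TRINITY_DN22916_c0_g1 lay between 0.51 and 2.4 TPM over the 9 libraries, and TRINITY_DN22916_c0_g3 between 0 and 6.90 TPM, with its highest value in DS replicate 1. Their closest proteins are of grape and poplar. Adding all 5 unigenes of the component before the fit, an alternative chosen after seeing the data, gave -1.43 for DS vs. CK (limma adjusted p = 0.0231).

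**Figure D3:**
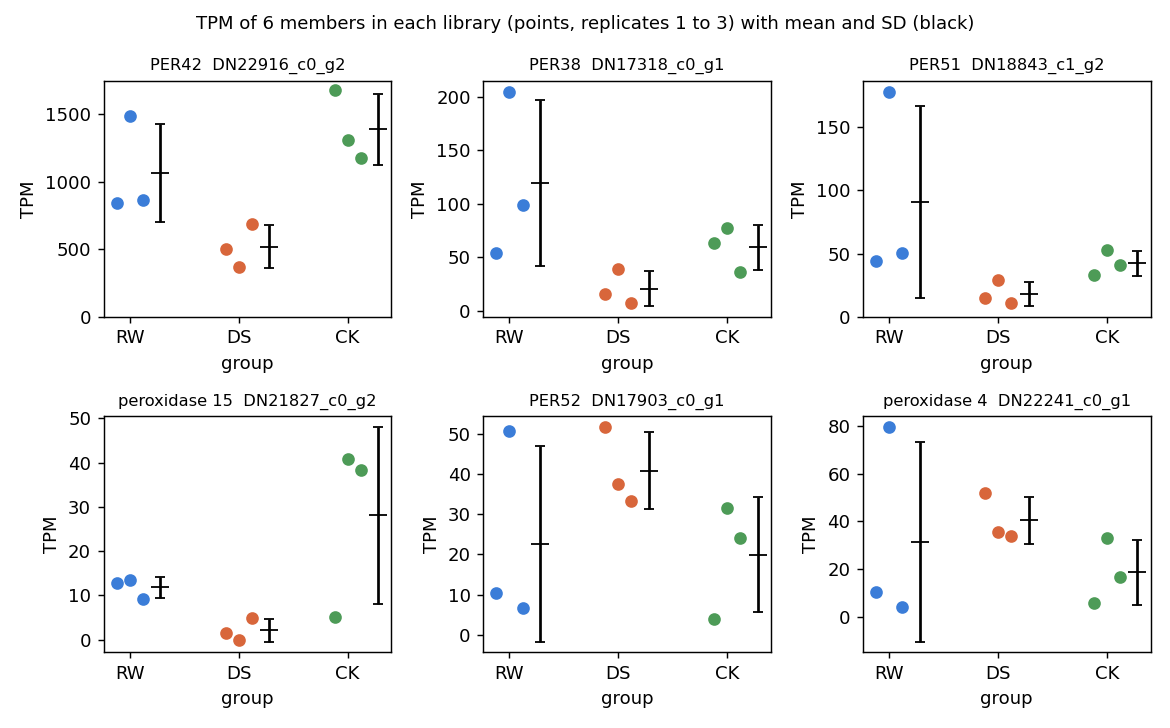
TPM of 6 members in RW, DS and CK, with each library as a point (replicates 1 to 3 from left to right) and the mean and SD of the 3 libraries in black. DS lies below CK for PER42, PER51 (DN18843_c1_g2) and the peroxidase 15 unigene DN21827_c0_g2, and above CK for PER52 and the peroxidase 4 unigene DN22241_c0_g1, where RW replicate 2 is far above the other RW libraries.

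The peroxidase 15 group, 12 members in 3 components, held the member that rose after rewatering. Peroxidase 15 is the name of a secreted anionic enzyme of sweet potato, and the closest Medicago proteins are called, among other names, peroxidase 15, peroxidase E5, peroxidase1A and peroxidase1B. PER38 (TRINITY_DN17318_c0_g1), a fragment of 435 bp closest to M. truncatula peroxidase 15 isoform X1, had 54.4, 205 and 99.0 TPM in RW, 15.7, 38.6 and 7.28 TPM in DS, and 63.4, 77.2 and 36.6 TPM in CK. RW lay wholly above DS, with RW replicate 2 the highest of all, and CK overlapped with both. The log2 fold change was 2.57 (SE 0.61, limma adjusted p = 0.0478) in RW vs. DS and -1.71 (SE 0.61, adjusted p = 0.147) in DS vs. CK.

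This call was close to the threshold. The log2 fold change lay between 2.02 and 3.15 over 19 alternatives, some of which could not move it. The threshold was missed in 11 of them, with limma adjusted p up to 0.13. Among these were pseudocounts of 0.1 (0.0524) and 5 (0.0518), the 6 libraries of the pair alone (0.0954) and median-of-ratios scaling (0.0629). The others were the fits without RW replicate 2 (2.08, limma adjusted p = 0.13), RW replicate 3 (0.126), DS replicate 1 (0.124), DS replicate 3 (0.124), and CK replicate 1, 2 or 3 (0.0698, 0.0669 and 0.062). Since CK takes no part in RW vs. DS, the last 3 changed only the estimate of the spread.

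Summed over its 4 unigenes, all of them members, the component of PER38 (TRINITY_DN17318_c0) gave a steadier difference. This sum contains PER38, so it is no separate evidence for the other copies. In RW vs. DS those were at 0.03 (TRINITY_DN17318_c0_g2), 0.87 (TRINITY_DN17318_c0_g3) and -0.115 (TRINITY_DN17318_c0_g4), and none was called. The sum was 164, 239.6 and 157 TPM in RW, 86.1, 85.0 and 61.5 TPM in DS, and 100.03, 139.5 and 104 TPM in CK. RW lay above both other groups and DS below both, in every library. The log2 fold change was 1.25 (SE 0.23, limma adjusted p = 0.014) in RW vs. DS, -0.55 (adjusted p = 0.194) in DS vs. CK and 0.69 (adjusted p = 0.739) in RW vs. CK. Of the 26 components with a member, this was the only one called in RW vs. DS, against 5.49% of 19609 components tested, and the PER42 component was the only one called in DS vs. CK, against 6.33%. The RW vs. DS call of TRINITY_DN17318_c0 passed in 14 of 14 other settings run on the sums, between 1.06 and 1.36 with adjusted p between 0.0108 and 0.0439, among them the fits without each library and after median-of-ratios scaling. The PER42 component passed in 7 of the same 14 in DS vs. CK.

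**Figure D4:**
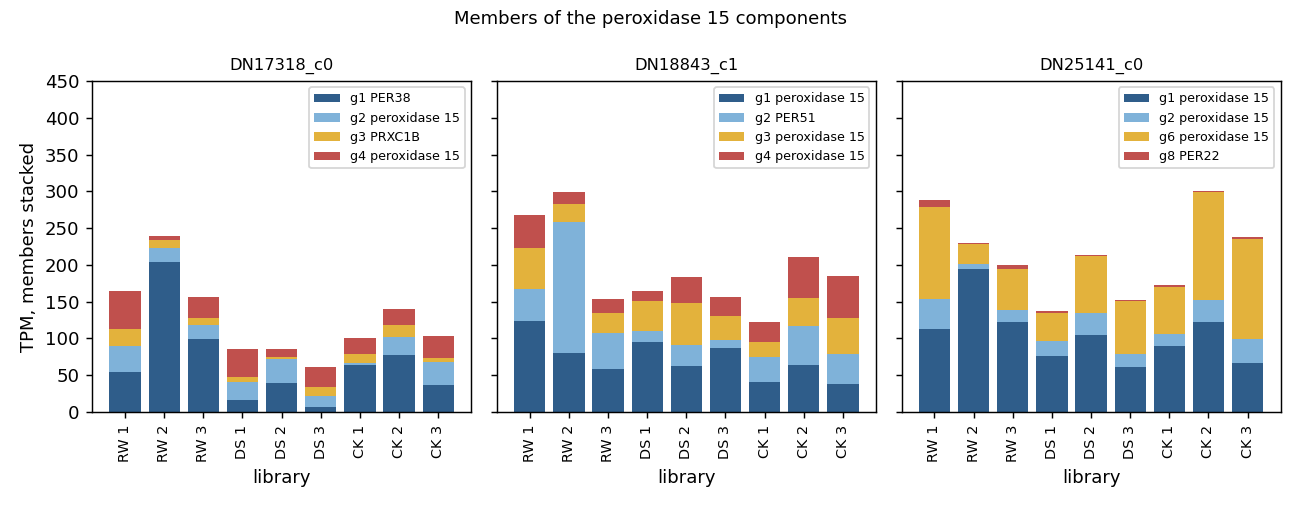
TPM of the 12 members of the 3 peroxidase 15 components, stacked within each component, in the RW, DS and CK libraries from left to right. In DN17318_c0 all 3 RW bars are above, and all 3 DS bars below, those of CK. In RW replicate 2, 1 unigene fills most of each bar: PER38, PER51 and the peroxidase 15 unigene g1.

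No other member of these components passed the test. PER51 (TRINITY_DN18843_c1_g2), matched by SwissProt to Arabidopsis peroxidase 51 but closest to the same M. truncatula peroxidase 15 isoform X1, came nearest: 43.9, 178 and 50.2 TPM in RW, 14.8, 28.8 and 11.1 TPM in DS, and 32.9, 52.9 and 40.7 TPM in CK. DS lay below all libraries of the other groups, and the log2 fold change was 2.06 (SE 0.52, limma adjusted p = 0.0601) in RW vs. DS and -1.25 (adjusted p = 0.21) in DS vs. CK. Its call in RW vs. DS was gained where only unigenes of at least 5 TPM were tested (adjusted p = 0.0481). The unigene TRINITY_DN25141_c0_g1 had 113, 194 and 122 TPM in RW, 75.4, 104 and 60.9 TPM in DS, and 89.2, 123 and 65.9 TPM in CK, so that RW was above DS in each library (0.82, adjusted p = 0.19). Like PER38 and PER51, it had its highest value in RW replicate 2.

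Several members of the same components were lowest in that library. TRINITY_DN25141_c0_g6 had 125, 26.2 and 55.4 TPM in RW, 38.0, 77.1 and 71.5 TPM in DS, and 64.4, 147 and 137 TPM in CK. TRINITY_DN25141_c0_g2 had 40.9, 7.81 and 16.2 TPM in RW, and TRINITY_DN17318_c0_g4 had 51.98, 5.11 and 29.1 TPM. RW replicate 2 was the highest RW library for 3 of the 12 members of these components and the lowest for 7, while RW replicate 1 was the highest for 9. The most abundant copy differed between RW libraries in TRINITY_DN18843_c1 and TRINITY_DN25141_c0 but was PER38 in all 3 of them in TRINITY_DN17318_c0. The part of the many other unigenes found in RW replicate 2 alone was not tested.

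Of the remaining members of this group, TRINITY_DN18843_c1_g1 (peroxidase1B of alfalfa) had 123, 80.6 and 57.8 TPM in RW, 94.9, 62.6 and 86.2 TPM in DS, and 41.3, 63.6 and 38.5 TPM in CK. It was the peroxidase 15 unigene with the highest DS vs. CK value, 0.77 (SE 0.31, limma adjusted p = 0.198), and DS overlapped with CK by a single library. PRXC1B (TRINITY_DN17318_c0_g3), closest to a horseradish peroxidase, stayed between 3.81 and 22.3 TPM, and PER22 (TRINITY_DN25141_c0_g8) between 0.97 and 9.57 TPM. The other 3, TRINITY_DN17318_c0_g2, TRINITY_DN18843_c1_g3 and TRINITY_DN18843_c1_g4, had levels of 3.18 to 35.8, 21.4 to 56.7 and 13.8 to 57.4 TPM over the 9 libraries. The sum of the 4 members in TRINITY_DN18843_c1 was 153 to 299.7 TPM in RW, 156 to 183 TPM in DS and 122 to 210.0 TPM in CK, with overlap throughout. In TRINITY_DN25141_c0 it was 199.8 to 288 TPM in RW, 137 to 213 TPM in DS and 172 to 300.5 TPM in CK.

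Outside these components, a further unigene closest to sweet potato peroxidase 15, TRINITY_DN21827_c0_g2, had the lowest DS vs. CK value of all members. It had 12.8, 13.4 and 9.17 TPM in RW, 1.39, 0 and 4.93 TPM in DS, and 5.10, 40.8 and 38.3 TPM in CK. DS lay below both other groups, though CK replicate 1 was close to DS replicate 3, and it was listed at 0 in DS replicate 2. The log2 fold change was -3.16 (SE 0.79, limma adjusted p = 0.052) in DS vs. CK and 2.39 (SE 0.79, adjusted p = 0.143) in RW vs. DS. The DS vs. CK value passed the test without CK replicate 1 (-4.07, adjusted p = 0.0129), without DS replicate 3 (-3.80, adjusted p = 0.0386) and where only unigenes of at least 5 TPM were tested (adjusted p = 0.0427).

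Other abundant members did not pass the test. PER51 (TRINITY_DN18843_c0_g1), closest to alfalfa peroxidase2, had 137, 44.6 and 69.9 TPM in RW, 59.5, 54.8 and 43.0 TPM in DS, and 67.9, 133 and 164 TPM in CK. DS lay below CK in each library (-1.12, limma adjusted p = 0.172), but RW spanned both. Peroxidase 4 (TRINITY_DN18518_c0_g1, named after a grape entry) had 71.7, 107 and 47.1 TPM in RW, 38.0, 43.6 and 99.3 TPM in DS, and 58.3, 151 and 159 TPM in CK (-1.02 in DS vs. CK, adjusted p = 0.275). PNC1 (TRINITY_DN18500_c0_g1), matched to a cationic peroxidase of peanut, was the most uneven within DS, with 25.8, 20.4 and 48.4 TPM in RW, 66.9, 15.7 and 155 TPM in DS, and 30.6, 50.5 and 40.1 TPM in CK. Its DS vs. CK value of 0.47 (adjusted p = 0.755) turned to -0.27 without DS replicate 3.

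A pair of members had higher values in DS than in CK, which did not pass the test. PER52 (TRINITY_DN17903_c0_g1), whose Arabidopsis counterpart takes part in lignification of the stem, had 10.5, 50.5 and 6.79 TPM in RW, 51.6, 37.5 and 33.3 TPM in DS, and 4.05, 31.6 and 24.2 TPM in CK. The peroxidase 4 unigene TRINITY_DN22241_c0_g1 had 10.5, 79.4 and 4.15 TPM in RW, 51.7, 35.7 and 33.9 TPM in DS, and 5.82, 33.2 and 16.6 TPM in CK. For both, DS lay just above CK in each library and RW replicate 2 was at the DS level or above it, with the other RW libraries at or below 10.5 TPM. The log2 fold changes in DS vs. CK were 1.35 (SE 0.79, limma adjusted p = 0.373) and 1.35 (SE 0.90, adjusted p = 0.441), within the spread of the libraries. Without CK replicate 1, the lowest CK library for both, they were 0.52 for PER52 and 0.73 for TRINITY_DN22241_c0_g1. PER25 (TRINITY_DN22241_c0_g2), of the same component as the peroxidase 4 unigene, had 5.24, 10.9 and 5.89 TPM in RW, 15.9, 6.48 and 13.3 TPM in DS, and 3.30, 7.17 and 0.65 TPM in CK (1.65 in DS vs. CK, SE 0.57, adjusted p = 0.135).

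None of the 9 lignin-linked members passed the test. In DS vs. CK 0 were called, against 4.96% of all tested unigenes, 6 (66.7%) were below 0 against 62.4% of all, and the median was -0.87 against -0.19 for all. In RW vs. DS and in RW vs. CK 0 were called as well, with medians of 0.29 and -0.30 (0.17 and -0.02 for all). Their summed level was 139, 164 and 105 TPM in RW, 173, 92.1 and 116 TPM in DS, and 136, 186 and 147 TPM in CK, with all groups overlapping.

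PER17, a peroxidase of lignified tissue in Arabidopsis, was the largest part of that sum in every RW and CK library. Its component (TRINITY_DN21912_c0) held 3 members, 2 of them matched to PER17, and the 3 summed to 116, 131 and 109 TPM in RW, 122, 45.7 and 48.5 TPM in DS, and 149, 125 and 102 TPM in CK. DS replicates 2 and 3 lay below every library of the other groups, whereas DS replicate 1 was within the CK range, and the same held for each of the 3 unigenes. In DS vs. CK the PER17 unigenes were at -0.88 (TRINITY_DN21912_c0_g1, limma adjusted p = 0.168) and -0.82 (TRINITY_DN21912_c0_g2, adjusted p = 0.243). Without DS replicate 1 both passed the test, at -1.27 (adjusted p = 0.0377) and -1.32 (adjusted p = 0.0128), and so they did in RW vs. DS.

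Low members of this role were mostly lower in DS, by values that did not pass the test. PER64 (TRINITY_DN17611_c0_g1), which in Arabidopsis roots helps to lay down the lignin of the Casparian strip, had 25.8, 3.49 and 4.74 TPM in RW, 5.22, 4.19 and 10.7 TPM in DS, and 9.22, 36.3 and 25.3 TPM in CK (-1.58 in DS vs. CK, limma adjusted p = 0.24). PER66 (TRINITY_DN19495_c0_g2) had 7.18, 3.49 and 1.57 TPM in RW, 0.41, 0.62 and 2.18 TPM in DS, and 1.52, 7.66 and 7.07 TPM in CK (-1.53, adjusted p = 0.189). In both, CK replicate 1 was below the other CK libraries and within the DS range. PER47 (TRINITY_DN11621_c0_g1) and PER72 (TRINITY_DN25445_c0_g10) stayed at or below 4.02 and 3.35 TPM in every library. The second PER52 unigene (TRINITY_DN18834_c1_g1) had 7.28, 3.16 and 2.45 TPM in RW, 5.43, 8.66 and 18.3 TPM in DS, and 10.5, 12.2 and 4.89 TPM in CK.

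Markers of xylem and secondary walls also varied between the libraries of a group. The 33 tested markers (cellulose synthases of the secondary wall, laccases, fasciclin-like proteins and others) summed to 878, 267 and 338 TPM in RW, 140, 45.3 and 401 TPM in DS, and 644, 2074 and 1587 TPM in CK. In DS vs. CK all 33 were below 0, against 62.4% of all tested unigenes, with a median of -2.70 against -0.19. The limma test was passed by 14 (42.4%, against 4.96% of all). This count was 0 without DS replicate 1, DS replicate 2, CK replicate 2 or CK replicate 3, and 3 without RW replicate 3 or after median-of-ratios scaling. Since the share of all tested unigenes called in those settings is not given, fewer calls in general cannot be told apart. In RW vs. DS and RW vs. CK 0 passed, with medians of 1.21 and -1.48 (0.17 and -0.02 for all). The tested unigenes of the defining cellulose synthases CESA4, CESA7 and CESA8 were above 0 in all 9 libraries. Within the groups the summed markers were lowest in CK replicate 1 and highest in DS replicate 3 and RW replicate 1.

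This order of libraries, looked for after the values were seen, was shared by 6 of the 41 members (14.6%): PER47, PER64, PER66, PER51 (TRINITY_DN11629_c0_g1), PNC2 and peroxidase 4 (TRINITY_DN19010_c1_g2). Of the 9 lignin-linked members, 3 (33.3%) had it, and over all tested unigenes the share was 5.85%. The order was read from the sum of the 33 xylem markers, so the 30 of them (90.9%) that shared it are no separate evidence. CK replicate 1 was the lowest CK library for 25 of the 41 members (61.0%), against 41.3% of all tested unigenes. Of 11 phloem and 21 epidermal and guard cell markers, 0 and 1 (4.76%) passed the test in DS vs. CK, against 4.96% of all. Their medians were -1.10 and -0.13, against -0.19 for all. The share of vascular tissue in each leaf sample and its part in these values were not tested. PER42 did not have this order: CK replicate 1 was its highest CK library and RW replicate 1 its lowest RW library. DS replicate 3 was its highest DS library, as in the summed markers.

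The enzymes around the peroxidases were counted from lists of protein descriptions. Class III peroxidases take their hydrogen peroxide from NADPH oxidases, superoxide dismutases and germin-like proteins. Of all tested unigenes 4.96% were called in DS vs. CK, and the median of all was -0.19. In the same comparison 0 of 14 NADPH oxidases and 0 of 11 superoxide dismutases were called (medians -0.15 and 0.28). Of 15 germin-like proteins 2 fell (13.3%) and 0 rose, with a median of -0.68. The germin-like unigene with the smallest p, TRINITY_DN19228_c0_g1, had 25.4, 17.6 and 16.6 TPM in RW, 5.41, 3.82 and 14.1 TPM in DS, and 24.4, 71.9 and 68.1 TPM in CK (-2.70, SE 0.49, limma adjusted p = 0.0158). Leaving out DS replicate 1, DS replicate 2, CK replicate 2 or CK replicate 3 took the count of germin-like proteins to 0, with adjusted p for this unigene between 0.0561 and 0.0678. How many of all tested unigenes were called in those fits is not given, so fewer calls in general cannot be told apart.

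Enzymes that remove hydrogen peroxide inside the cell were counted next. Among 7 ascorbate peroxidases, 8 peroxiredoxins and the single catalase unigene, 0 were called in any comparison. The glutathione peroxidase GPX6 (TRINITY_DN20057_c1_g2), which reduces peroxides with thiols, rose in drought, with 326, 824 and 448 TPM in RW, 1800.1, 2085 and 1216 TPM in DS, and 524, 298 and 283 TPM in CK. DS lay above every other library, at 2.23 (SE 0.38, limma adjusted p = 0.0116) in DS vs. CK on the log2 scale and -1.75 (adjusted p = 0.0353) in RW vs. DS. The first call was lost without CK replicate 3 (adjusted p = 0.0547), and the second in 8 of 19 alternatives, among them the fits without RW replicate 1 (0.108), RW replicate 3 (0.117), DS replicate 1 (0.105), DS replicate 2 (0.115), CK replicate 2 (0.0533) and CK replicate 3 (0.0525). It was 1 of 7 glutathione peroxidases (14.3%), and the other 6 were not called in any comparison. Of all tested unigenes 4.96% were called in DS vs. CK and 3.94% in RW vs. DS.

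Laccases oxidize the same lignin precursors as the peroxidases, with oxygen in place of hydrogen peroxide. Of 21 laccases, 5 fell and 0 rose in DS vs. CK, which is 23.8% against 4.96% of all tested unigenes. Their median was -1.22 against -0.19 for all. The count was 0 without DS replicate 1, DS replicate 2, CK replicate 2 or CK replicate 3, and 2 without RW replicate 3. The share of all tested unigenes called in those fits is not given. A change particular to laccases therefore cannot be told apart from fewer calls in general. The leading unigene, IRX12 (TRINITY_DN13025_c0_g4, laccase 4, also among the xylem markers), had 70.8, 16.0 and 32.1 TPM in RW, 16.6, 6.23 and 29.6 TPM in DS, and 76.5, 201.1 and 144 TPM in CK (-3.06, SE 0.63, limma adjusted p = 0.0248). Without those same 4 libraries in turn its limma adjusted p lay between 0.0656 and 0.0869, with log2 fold changes between -3.14 and -2.50. The summed laccases, which share IRX12 and other unigenes with the markers, had the same library order as them.

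Monolignols are the precursors that peroxidases and laccases polymerize. Of 64 unigenes of monolignol synthesis, 4 rose and 0 fell in DS vs. CK. That is 6.25%, against 4.96% of all tested unigenes, with a median of -0.07 against -0.19 for all. In RW vs. DS 2 rose and 6 fell, 12.5% against 3.94% of all, with a median of -0.09 against 0.17. The count in DS vs. CK was 2 without DS replicate 3 or CK replicate 1, and that in RW vs. DS was 5 without RW replicate 3. For those fits the share of all tested unigenes called is not given. CSE (TRINITY_DN17040_c1_g2), which releases caffeate from caffeoylshikimate, had 20.4, 19.6 and 34.8 TPM in RW, 112, 114 and 111 TPM in DS, and 29.4, 14.9 and 21.4 TPM in CK. It rose by a log2 fold change of 2.36 (limma adjusted p = 0.00183) in DS vs. CK and was at -2.18 (adjusted p = 0.00307) in RW vs. DS. In both it passed in 19 of 19 alternatives, among them the looser thresholds, which a called unigene must pass. The 4-coumarate ligase-like 4CLL7 (TRINITY_DN24125_c0_g1), in the list by its description alone, rose in RW vs. DS (1.59, limma adjusted p = 0.00416). It had 31.7, 31.2 and 39.4 TPM in RW, 12.1, 10.6 and 9.35 TPM in DS, and 23.4, 16.4 and 26.1 TPM in CK. Whether it acts in monolignol synthesis was not tested.

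Dirigent proteins, which steer the coupling of the radicals that peroxidases and laccases make, changed both ways. In DS vs. CK 2 of 19 rose and 3 fell, which is 26.3% against 4.96% of all tested unigenes. Their median was -0.72 against -0.19 for all. In RW vs. DS 2 rose and 2 fell, 21.1% against 3.94% of all. The DS vs. CK count was 3 without DS replicate 1 or DS replicate 2, for which the share of all tested unigenes called is not given. DIR2 (TRINITY_DN14791_c0_g1) had 22.1, 9.90 and 11.4 TPM in RW, 132, 117 and 119 TPM in DS, and 7.90, 12.7 and 8.97 TPM in CK (3.53 in DS vs. CK, limma adjusted p = 0.000235). The dirigent protein 22 unigene TRINITY_DN18073_c0_g2 ran the other way, with 113, 109.8 and 155 TPM in RW, 46.2, 35.4 and 32.3 TPM in DS, and 125, 218 and 159.9 TPM in CK (-2.09, adjusted p = 0.00191). Both also passed in RW vs. DS, at -3.08 and 1.7025. Of 22 CASP-like membrane proteins, 0 were called in any comparison, and no marker of the root endodermis reached the level for testing. In RW vs. CK 0 unigenes of any of these lists were called.

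The remaining members did not pass the test in any comparison. PER55 (TRINITY_DN17222_c0_g1) had 9.88, 18.1 and 49.3 TPM in RW, 6.50, 22.6 and 11.9 TPM in DS, and 6.92, 6.21 and 13.4 TPM in CK, with its highest value in RW replicate 3. PNC2 (TRINITY_DN13801_c0_g4), matched to the second cationic peroxidase of peanut, lay between 3.23 and 32.6 TPM with all groups overlapping. Peroxidase 4 (TRINITY_DN19010_c1_g2) had 50.3, 23.8 and 35.5 TPM in RW, 23.3, 21.2 and 33.95 TPM in DS, and 35.6, 52.4 and 41.8 TPM in CK, with DS wholly below CK (-0.72, limma adjusted p = 0.21). PER21 (TRINITY_DN20911_c0_g2) and PER63 (TRINITY_DN22808_c0_g2) reached at most 11.3 and 12.6 TPM, both in RW replicate 2, PER29 (TRINITY_DN7346_c0_g1) stayed at or below 4.10 TPM, and PER18 at or below 2.22 TPM. The unigenes without a SwissProt entry outside the PER17 component, TRINITY_DN1249_c0_g1 and TRINITY_DN19010_c1_g4, stayed at or below 3.05 and 2.72 TPM. Of the 4 unigenes under the level for testing, PER64 (TRINITY_DN19010_c1_g8) and a peroxidase 15 fragment (TRINITY_DN9901_c0_g2) reached at most 2.15 and 6.42 TPM, in CK replicates 2 and 1.

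OCP3, the homeobox protein taken in by its name, is known in Arabidopsis for its part in disease resistance and in the response to drought. It had 34.3, 60.8 and 70.2 TPM in RW, 25.9, 33.1 and 18.6 TPM in DS, and 53.5, 43.6 and 49.4 TPM in CK. DS lay below every RW and CK library. The log2 fold change was -0.92 (SE 0.30, limma adjusted p = 0.112) in DS vs. CK and 1.03 (SE 0.30, adjusted p = 0.0926) in RW vs. DS, and the second passed the test without RW replicate 1 (1.34, adjusted p = 0.0382). Leaving it out changed none of the 3 counts of members called.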

How the data were processed

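The authors deposited 1 table of TPM values with unigene lengths and annotation, and no counts were used. Its methods describe trimming (Cutadapt), assembly (Trinity) and quantification (Salmon). HISAT2 2.0 and StringTie 1.3.0 also stand in the submitters' processing notes, and what they were used for is not given there. TPM keeps no depth, so no counting interval was computed.

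Unigenes with at least 1 TPM in 3 libraries were fitted on log2(TPM + 1) with limma 3.58.1 (statmod 1.5.0, R 4.3.3), all 9 libraries in 1 fit of 3 group means with trend and robust options (residual df 6). A member was called at a Benjamini-Hochberg adjusted p under 0.05 over 44538 unigenes with a log2 fold change beyond 1, two-sided. Adding 1 shrinks the fold changes of low unigenes. An exact permutation of 3 against 3 libraries cannot go below p = 0.1. The steps were tested on simulated data.

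The members and gene lists were chosen with earlier results of these data known. Unigenes named by rule were members called, the 8 of highest mean, per comparison the 3 largest differences not called with groups apart and a higher mean of at least 5 TPM, and per list the called unigene of smallest p in each direction. Other members were named after their values were seen. Alternatives were pseudocounts of 0.1 and 5, no filter or 5 TPM, an unadjusted p, no minimum fold, the 6 libraries of a pair, a replicate block, median-of-ratios and quantile scaling, and each library left out. Sums by component, the library order of the xylem markers and the counts without OCP3 were added after seeing the data.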

Additional observations from a re-analysis of the deposited data

Results flagged for a closer look

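Among the unigenes that matched the description but stayed below the level for testing, 2 had a signal in RW replicate 2 and 0 TPM in all CK libraries. A fragment described as OCP3 (TRINITY_DN17519_c0_g10, 345 bp) had 10.24 TPM there, 0.18 TPM in RW replicate 1 and 0 TPM in the other 7 libraries. PER49 (TRINITY_DN18500_c0_g2, 241 bp) had 9.73 TPM there and 0 TPM in the other 8. Both belong with the 3618 unigenes found in that library alone, and neither was tested between groups.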

How the results depend on the processing

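The main DS vs. CK count of 1 member became 2 with a filter of 5 TPM, 10 with an unadjusted p, 0 after median-of-ratios scaling and 0 with the replicate block, and lay between 0 and 2 when each library was left out. The main RW vs. DS count of 1 became 0 with a pseudocount of 0.1 or 5, 2 with a filter of 5 TPM, 7 with an unadjusted p, 0 with the 6 libraries of the pair alone, 0 after median-of-ratios scaling and 2 with the replicate block, and lay between 0 and 2 when each library was left out. The RW vs. CK count was 0 throughout. The members tested were 31 with the filter of 5 TPM and 45 with no filter. The share of all tested unigenes called in each setting is not given, so these changes cannot be read as particular to the members. Deviations of same-numbered libraries correlated between -0.094 and 0.063 over all tested unigenes, and those of differently numbered libraries between -0.084 and 0.091. The study names no pairing of the replicates, and a pairing that acts on some unigenes only was not tested. With the block, PER42 missed the threshold (limma adjusted p = 0.0667) and PER51 (TRINITY_DN18843_c1_g2) was called beside PER38 in RW vs. DS. The sign of a difference that was not called turned for PNC1 (TRINITY_DN18500_c0_g1) without DS replicate 3 and for the peroxidase 15 unigene TRINITY_DN25141_c0_g1 without CK replicate 2, both in DS vs. CK, where leaving out each library gave -0.27 to 1.34 and -0.42 to 0.028. Under median-of-ratios scaling and with no filter, the mean summed TPM of each group moved by less than its SD. Single libraries moved more under the scaling, and DS then overlapped with RW. A table without read depth and fragments that share reads limit what can be said of single copies and of members under 5 TPM.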
